A study of Mus musculus with 6 samples.

Results

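The genes of 4 families of splicing factors were described in ID8, a cancer line derived from mouse ovarian surface epithelium: the Hnrnp, Srsf, Snrp and Sf3 genes. Members were all protein-coding genes whose GENCODE M21 symbol starts with one of these prefixes and which had 10 or more counts in at least 3 of the 6 libraries. This took 50 of the 53465 genes in the table, 20 Hnrnp, 10 Srsf, 11 Snrp and 9 Sf3 genes, out of 52 protein-coding genes with these prefixes. RNA was sequenced from 3 libraries labelled WT and 3 labelled KO. The series names a line stably carrying the control guide sgNC and a line carrying sgNat10, called a knockdown there and KO in the labels, against Nat10, the gene of the enzyme that places N4-acetylcytidine on RNA. The study looked for transcripts of the DNA damage response that differ when NAT10 is reduced, and WT was taken as the sgNC line and KO as the sgNat10 line. Guide and line cannot be told apart, and the clonality of the lines and the cultures behind each library were not given in the sources used here. A p-value here therefore reflects how far these libraries vary, which may be technical variation. Libraries are named by the replicate numbers of the labels, 4 to 6 in each group.

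Introns are removed by the spliceosome, which is built on each new transcript from small nuclear ribonucleoproteins. The Snrp genes encode protein parts of these particles: the Sm proteins that form a ring on the small nuclear RNAs, and proteins particular to the U1 and U2 particles. The SF3A and SF3B complexes, made by the Sf3 genes, belong to the U2 particle and hold it at the branch point, the adenosine where splicing starts. SR proteins, made by the Srsf genes, bind exons and mostly favour their inclusion. The hnRNP proteins coat new transcripts, and many of them oppose the use of nearby splice sites. Several SR and hnRNP genes limit their own output by splicing in exons that send the transcript to decay.

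The coding sequences show what sets the SR genes apart. Their tails are rich in arginine and serine, and SR kinases phosphorylate the serines. Many hnRNP proteins instead carry arginine and glycine repeats that bind RNA. In the GENCODE M21 transcript with the longest complete coding sequence, codons for arginine next to serine stood at a median of 17.1 pairs per 100 codons in the 10 Srsf members, from 4.05 in Srsf9 to 23.5 in Srsf2. The median was 0.99 in the Hnrnp, 0 in the Snrp and 0.13 in the Sf3 members. The densest stretches of 72 coding bases are shown for Srsf7, Srsf6 and Srsf1. These SR genes had the smallest unadjusted p-values below, and none of them passed after adjustment. Capitals mark arginine codons next to serine codons.
Srsf7, coding bases 379 to 450: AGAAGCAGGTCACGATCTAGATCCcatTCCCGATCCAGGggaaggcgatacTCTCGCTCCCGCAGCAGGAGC
Srsf6, coding bases 580 to 651: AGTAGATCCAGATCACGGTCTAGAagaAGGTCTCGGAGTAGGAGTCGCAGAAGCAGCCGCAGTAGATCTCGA
Srsf1, coding bases 604 to 675: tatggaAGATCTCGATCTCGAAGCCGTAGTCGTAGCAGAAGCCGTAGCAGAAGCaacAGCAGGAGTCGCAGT

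Runs of arginine, glycine and glycine codons were found in 14 of 20 Hnrnp members, against 3 of 10 Srsf, 2 of 11 Snrp and 3 of 9 Sf3 members. The densest stretches are shown for the hnRNP genes with the highest mean CPM, not corrected for length, with capitals on those runs.
Hnrnpu, coding bases 2023 to 2094: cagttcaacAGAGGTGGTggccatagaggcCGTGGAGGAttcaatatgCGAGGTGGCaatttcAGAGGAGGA
Hnrnpa2b1, coding bases 574 to 645: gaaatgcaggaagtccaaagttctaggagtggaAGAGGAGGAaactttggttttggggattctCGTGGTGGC

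Transcripts annotated as targets of nonsense-mediated decay, the pathway that removes messages with an early stop, exist for 9 of 10 Srsf, 10 of 20 Hnrnp, 4 of 11 Snrp and 1 of 9 Sf3 members. A count per gene does not separate its transcripts, so a shift between a coding transcript and a decaying one would not show in them.

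Some members also have near copies elsewhere in the genome, and their counts are uncertain for that reason. Hnrnpf, which encodes an hnRNP that binds runs of G, has a processed pseudogene (Gm6430, chromosome 1, 97024681 to 97025928 in mm10) that is 99.3% identical over 1248 coding bases without gaps. A stretch of 60 bases shows how little separates them. Capitals mark the differing bases, A105C and G156T, with the base of Hnrnpf first and positions counted from the first coding base.
Hnrnpf: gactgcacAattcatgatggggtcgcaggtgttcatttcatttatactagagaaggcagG
Gm6430: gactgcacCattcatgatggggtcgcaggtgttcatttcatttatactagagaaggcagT

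Of the different 50-base words in Hnrnpf transcripts, 61.9% also stand in transcripts of other genes, 7 of them pseudogenes. Hnrnpf had 23, 42 and 0 counts in WT replicates 4, 5 and 6 and 1, 68 and 2 counts in the KO-labelled libraries, while Gm6430 had 0 in all. The share was over 10% for 17 of the 50 members, among them Snrpf (89.5%), Sf3b4 (45.3%), Srsf4 (39.5%), Hnrnpa1 (28.2%) and Hnrnpa3 (27.1%). Words from genes that overlap a member at its own place count too, so the share does not measure copies alone. For Srsf4 the only other gene was Gm12992, whose exons overlap its own. Exons of other genes, in either orientation, cover 85.4% of the exon bases of Snrpf, 43.0% of Srsf4, 29.1% of Hnrnpab, 26.5% of Hnrnpf and 25.3% of Srsf2. The handling of shared reads and of strand in the counting was not given in the sources used here.

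Libraries held 1687466 to 2148715 counts in WT and 2234305 to 3126208 in KO-labelled samples. Nat10 mRNA averaged 112 ± 53.1 in WT and 106 ± 43.1 in KO-labelled libraries, in CPM (counts scaled to library size with TMM factors), a log2 fold change of -0.07 with a 95% interval of -1.09 to 0.94. No reduction of the targeted mRNA was detectable under the KO label, although the interval includes one of more than 2-fold, and every direction below is that of the labels. Here and below, ± after a CPM value is the SD over the 3 libraries of a group, and ± after a log2 fold change is its SE. Of 11 markers of ovarian surface epithelium and mesothelium 7 were high enough to test. Krt7, Muc16 and Cdh1 were too low and Epcam had 0 counts throughout. The 11 together ran from 6225 to 6684 CPM in WT and from 4681 to 5337 CPM in KO-labelled libraries. Much of that was Krt19, at 4202 ± 203 CPM in WT and 2223 ± 32.1 CPM under the KO label. Of the 7, 3 passed the edgeR test used below (Krt18 and Krt19 lower, Msln higher), beside 0.402% of all genes tested. The 5 fibroblast markers summed to 42.8 to 85.4 CPM in WT and to 5.85 to 32.0 CPM under the KO label. The part of these differences in the results below was not tested, and in such bulk RNA fewer cells of a type and less RNA per cell cannot be told apart. Leukocyte, endothelial and erythroid markers summed to 0 to 14.5, 0 to 1.55 and 0 to 0.31 CPM over the libraries, with Cd3e and Hba-a1 at 0 throughout.

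None of the 50 splicing factor genes passed an adjusted p of 0.05 between KO-labelled and WT libraries in the quasi-likelihood test of edgeR, adjusted after Benjamini and Hochberg over 8200 genes, of which 0.402% passed. DESeq2 (2.85% of genes called) and limma-voom (0.524%) called none of them either. At an unadjusted p under 0.05 there were 4 members, or 8.0%, against 6.49% of all genes tested: Srsf7, Srsf6, Srsf1 and Hnrnpm, all with lower estimates in KO-labelled libraries, where 3.79% of all genes were lower and 2.7% higher at that p. DESeq2 gave 7 members lower and 1 higher at that p, where it had 5.5% of all genes lower and 4.93% higher. The groups did not overlap for 7 members, or 14.0%, against 14.9% of all genes tested. All 7 were lower, where 7.93% of all genes were lower without overlap and 6.94% higher. With library totals in place of TMM scaling, which moves the median log2 fold change of all genes by 0.11, 5 members were lower and 3 higher without overlap, beside 6.34% and 8.59% of all genes.

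**Figure D1:**
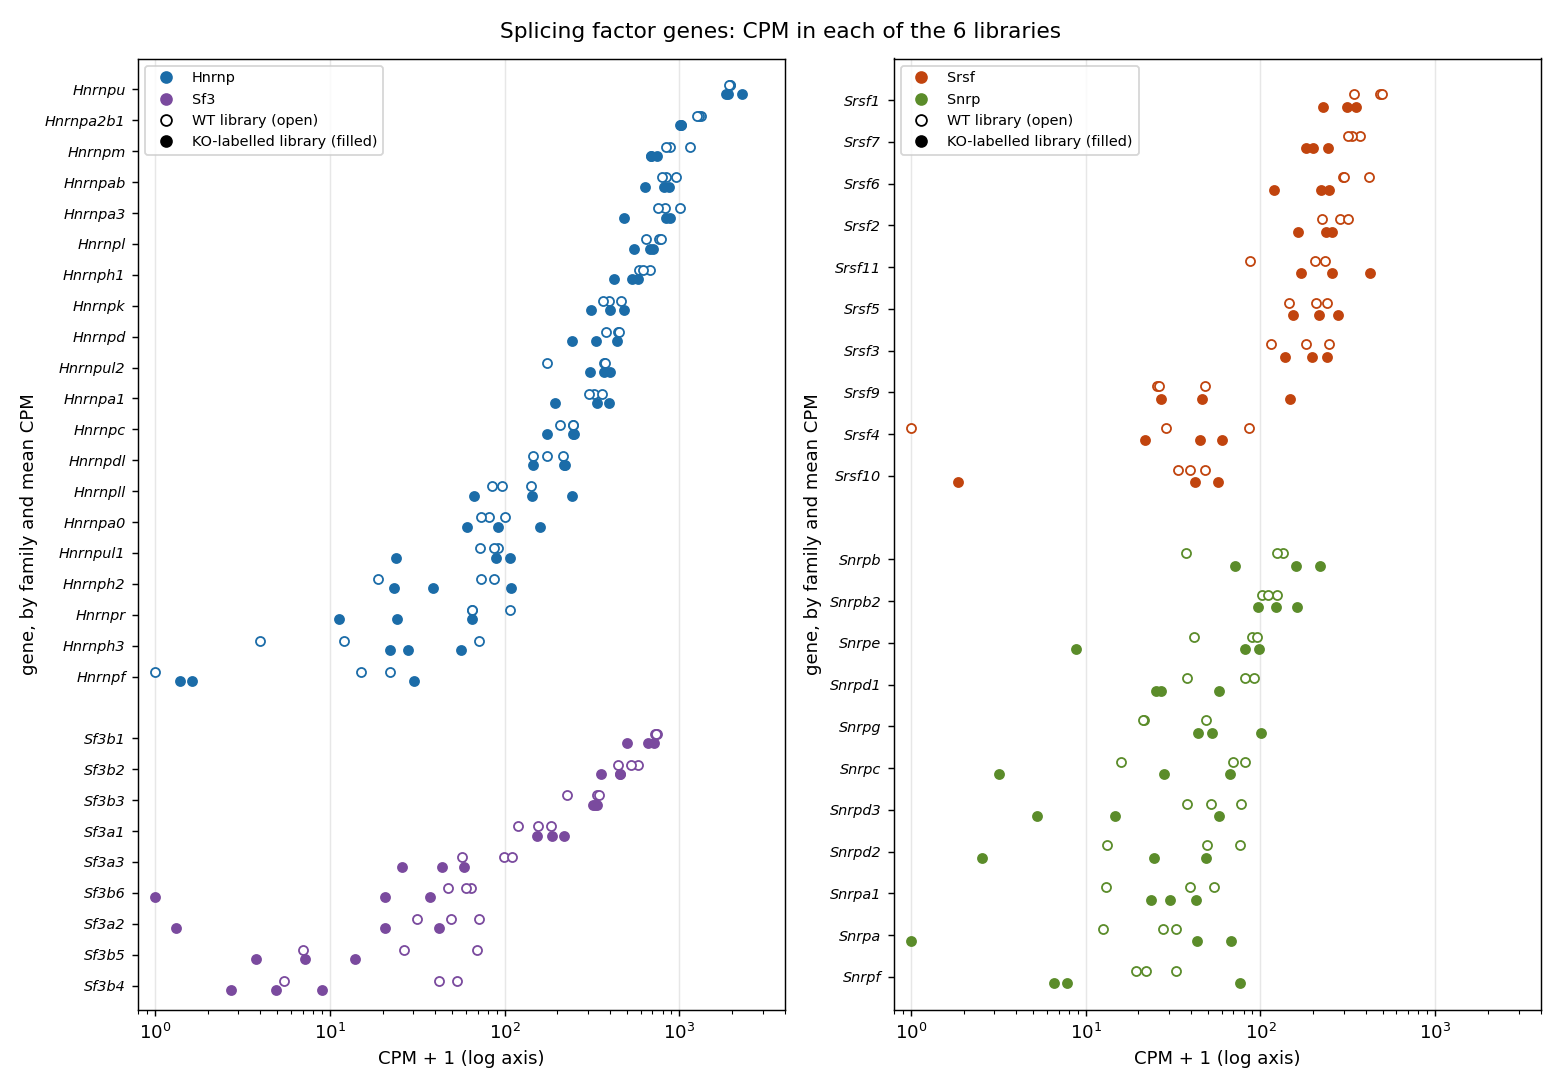
CPM plus 1 on a log axis for each of the 50 genes in each library, with open points for WT and filled points for KO-labelled libraries, grouped by family and ordered by mean CPM. Genes over 200 CPM mostly lie close together within a label, and 4 genes (Hnrnpf, Srsf4, Sf3b6 and Snrpa) have 1 library at 0.

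The SR protein genes held 3 of the 4 smallest p-values, and their estimates lay on both sides of 0. Srsf7, a small SR protein with a zinc knuckle that also takes part in mRNA export, stood at 368, 331 and 315 CPM in WT replicates 4, 5 and 6 and at 199, 182 and 241 CPM in KO-labelled replicates 4, 5 and 6. Every KO-labelled library was below every WT library. Its log2 fold change of -0.71 ± 0.26 had a 95% interval of -1.26 to -0.15 (edgeR adjusted p = 0.528, DESeq2 0.0817). Leaving out any 1 library gave -0.83 to -0.61. Srsf7 (ENSMUSG00000024097) lies on chromosome 17 from 80200080 to 80207307 in mm10. Its neighbour Hnrnpll, 138 kb away and known for its part in lymphocyte splicing, had an estimate of 0.49 ± 0.46 with overlapping groups.

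Srsf6, a larger SR protein with paired RNA-binding domains, stood at 417, 297 and 299 CPM in WT and at 247, 119 and 221 CPM under the KO label. Again the groups did not overlap, and KO replicate 5 was the lowest. Its log2 fold change was -0.79 ± 0.31 (interval -1.46 to -0.12, edgeR adjusted p = 0.573). Srsf1, the founding SR protein, had 480, 492 and 344 CPM in WT and 310, 228 and 351 CPM under the KO label. Here WT replicate 6 lay below KO replicate 6, so the groups overlapped (log2 fold change -0.57 ± 0.25, interval -1.11 to -0.02, edgeR adjusted p = 0.713). Srsf2, whose protein works in transcription elongation as well as splicing, stood at 274 ± 46.8 CPM in WT and 218 ± 49.0 CPM under the KO label, with overlapping groups.

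Other SR genes had estimates above 0. Srsf11 had 232, 204 and 85.6 CPM in WT and 170, 422 and 257 CPM under the KO label, for a log2 fold change of 0.70 ± 0.40 (edgeR adjusted p = 0.958). WT replicate 6 was low and KO replicate 5 high, and the estimate ran from 0.31 to 0.97 with 1 library left out. Srsf9, the SR gene with the largest estimate (1.16 ± 0.73), had 146 CPM in KO replicate 5 and 24.5 to 47.4 CPM in the other 5 libraries. Srsf3 and Srsf5, which encode small SR proteins, had estimates of 0.08 ± 0.35 and 0.13 ± 0.32, and both intervals lay within 2-fold either way. Srsf10, an SR-like protein that represses splicing when it loses its phosphates, had 2 counts in KO replicate 5 and 54 to 181 in the others. Srsf4 had 0 counts in WT replicate 4 and 49 to 191 in the others. In all, 5 of the 10 Srsf estimates were below 0, and their median was -0.10. That median ran from -0.35 without WT replicate 4 to 0.0016 without WT replicate 6. It was -0.014 without KO replicate 5, -0.31 without KO replicate 6 and 0.0072 with library totals in place of TMM, so its sign and size rest on single libraries and on the scaling.

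**Figure D2:**
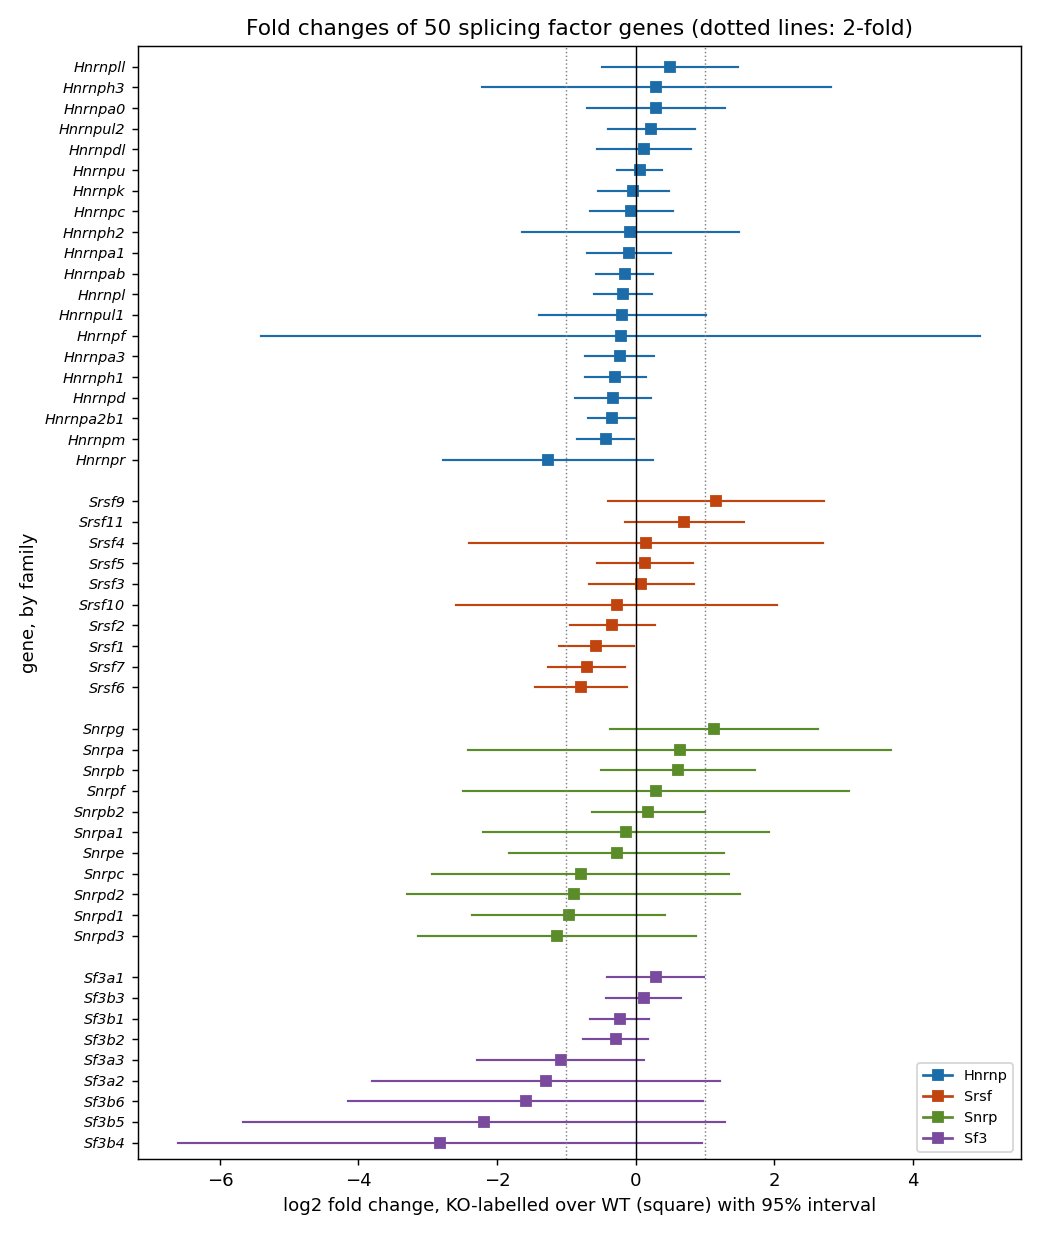
Log2 fold change of KO-labelled over WT libraries (squares) with 95% intervals (lines) for the 50 genes by family, with dotted lines at 2-fold. The intervals of Srsf7, Srsf6, Srsf1 and Hnrnpm leave out 0 before adjustment, and those of 10 of the 11 Snrp genes reach past 2-fold in at least 1 direction.

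The hnRNP genes were the most abundant of the 4 families, and most of their intervals were narrow. Hnrnpu, which encodes a scaffold protein of the nuclear matrix, had 1938, 1942 and 1907 CPM in WT and 1899, 1852 and 2282 CPM under the KO label. It ranked 28 among all tested genes by mean CPM. The groups overlapped, KO replicate 6 was the highest, and the interval of the log2 fold change, -0.26 to 0.38, leaves out a change of 2-fold in either direction. Per kb of annotated exon, the highest levels were those of Hnrnpab (293 CPM per kb), Hnrnpa2b1 (175), Hnrnpu (170) and Hnrnpa3 (148). The length merges the exons of all annotated transcripts of a gene, expressed or not, so this scale compares genes only roughly. On this scale the lowest member was Hnrnpr at 2.50 CPM per kb, whose annotated exons add up to 22199 bases. Its mean without that division was 55.4 CPM, and the lowest mean was that of Hnrnpf at 10.8 CPM.

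Among the hnRNP A/B and D genes, whose proteins pair 2 RNA-binding domains with a glycine-rich tail, Hnrnpa2b1 gave the tightest values. It stood at 1330, 1286 and 1258 CPM in WT and at 1006, 1026 and 1020 CPM under the KO label. All KO-labelled values were under all WT values. The log2 fold change was -0.34 ± 0.16 (edgeR adjusted p = 0.769), and -0.36 to -0.32 with 1 library left out. Hnrnpa1, its closest relative in the classic A/B core, had 328 ± 29.2 CPM in WT and 307 ± 104 CPM under the KO label. KO replicate 5 was the lowest library for Hnrnpa1, Hnrnpa3 (483 CPM against 756 to 1001 in the others) and Hnrnpd (243 CPM against 331 to 447), the last an AU-rich element binding protein also called AUF1. Hnrnpab, which binds RNA in transport and translation, stood at 861 ± 86.3 CPM in WT and 772 ± 124 CPM under the KO label, with overlapping groups.

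Hnrnpm, a regulator of alternative exons, had 881, 831 and 1142 CPM in WT and 684, 683 and 747 CPM under the KO label. The groups did not overlap, and WT replicate 6 was the highest. The log2 fold change was -0.43 ± 0.19 (interval -0.84 to -0.03, edgeR adjusted p = 0.695), and -0.28 without that library. Hnrnph1, which binds G runs, had 584, 680 and 617 CPM in WT and 421, 536 and 576 CPM under the KO label. Its groups were apart by a narrow margin (log2 fold change -0.29 ± 0.21). Hnrnpr had the lowest estimate of the family at -1.26 ± 0.71 (edgeR adjusted p = 0.947). Its values were 63.8, 64.0 and 107 CPM in WT and 64.4, 23.1 and 10.2 CPM under the KO label, so KO replicate 4 lay within the WT range, and the estimate was -2.23 without it and -0.84 without KO replicate 6.

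Hnrnpk, a poly(C)-binding protein, Hnrnpc, which binds uridine runs, and Hnrnpl, which binds CA repeats, had estimates of -0.03 ± 0.24, -0.06 ± 0.28 and -0.18 ± 0.20 with overlapping groups. For 13 of the 20 Hnrnp members the 95% interval lay within 2-fold either way. Of the 20 estimates 14, or 70.0%, were below 0, against 51.0% of all genes tested. Their median was -0.13 and their range -1.26 to 0.49, beside a median of -0.02 over all genes tested. Over 200 CPM, 10 of 12 Hnrnp estimates and 478 of 818 of all genes tested were below 0, with medians of -0.17 and -0.07. The least measurable were Hnrnpf and Hnrnph3, whose standard errors were 2.43 and 1.18 on the log2 scale.

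The snRNP protein genes had the lowest median CPM of the 4 families and the widest median spread between libraries of a label. Both were near those of all genes tested (medians of 43.3 and 36.6 CPM, spread 61.1% in both). No member had groups apart. The estimates of the Sm ring genes lay on both sides of 0. Snrpg had 20.7, 48.0 and 20.2 CPM in WT and 100.3, 42.8 and 52.1 CPM under the KO label, for a log2 fold change of 1.13 ± 0.70. WT replicate 5 lay within the KO-labelled range. Snrpb, which makes the Sm B and B' proteins, had 133, 123 and 36.4 CPM in WT and 218, 160 and 70.7 CPM under the KO label (0.61 ± 0.52). In both groups replicate 6 was the lowest. Snrpd3 had 76.6, 51.0 and 37.0 CPM in WT and 57.0, 4.28 and 13.7 CPM under the KO label (-1.13 ± 0.94). The estimate was -2.58 without KO replicate 4 and -0.64 without KO replicate 5.

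Snrpd1 had 69.6 ± 28.7 CPM in WT and 35.7 ± 18.4 CPM under the KO label (-0.96 ± 0.65). Snrpe had 40.7, 88.9 and 94.2 CPM in WT and 7.80, 80.1 and 97.1 CPM under the KO label. Its estimate of -0.28 turned to 0.26 without KO replicate 4. These rings are assembled from the Sm proteins in fixed proportions, but the 7 Sm genes with counts had estimates from -1.13 to 1.13, each with an interval that holds 0. Of the U1 proteins, Snrpa had 42.1 and 67.2 CPM in KO replicates 4 and 5 and 0 counts in KO replicate 6. There 3 counts, about the most that counting error alone allows behind a count of 0, are worth 0.931 CPM. Snrpc had 2.17 CPM in that library and 26.9 and 65.9 CPM in the others of its group. The U2 protein gene Snrpb2 was the steadiest of the family, with 111 ± 11.9 CPM in WT and 126 ± 32.9 CPM under the KO label (0.18 ± 0.38), and it was the only Snrp member whose interval, -0.63 to 0.99, lay within 2-fold.

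The rule left out Snrpn, the neuronal paralogue of Snrpb from the imprinted locus on chromosome 7, and Srsf12, each with 0 counts in all 6 libraries. Snurf and Gm38393, whose exons overlap those of Snrpn, were at 0 too. Just inside the rule stood Hnrnpf, with 10 or more counts in 3 libraries, and Sf3b4, with 10 or more in 4.

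The SF3 genes split by level. The large SF3B subunits and Sf3a1 had intervals within 2-fold. Sf3b1, the core subunit that cradles the branch helix and is recurrently mutated in cancers, had 742, 722 and 737 CPM in WT and 656, 502 and 717 CPM under the KO label. The groups were apart, with KO replicate 6 just under the lowest WT library (log2 fold change -0.23 ± 0.20, -0.09 without KO replicate 5). Sf3b2 had 515 ± 67.5 CPM in WT and 422 ± 58.1 CPM under the KO label (-0.29 ± 0.22), and Sf3b3 303 ± 66.4 and 328 ± 8.24 CPM (0.12 ± 0.25). Sf3a1 had an estimate of 0.29 ± 0.33.

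The small SF3B subunits and 2 SF3A genes had lower estimates with wide intervals. Sf3b6, the subunit that contacts the branch adenosine, had 63.2, 59.0 and 46.3 CPM in WT and 0, 36.4 and 19.5 CPM under the KO label. Its groups were apart, with no count in KO replicate 4, but its log2 fold change of -1.59 ± 1.201 had an interval of -4.16 to 0.98. It was -1.001 without KO replicate 4, -2.49 without KO replicate 5 and -3.38 in limma-voom. Sf3b4 had 41.3, 4.50 and 52.0 CPM in WT and 3.90, 1.71 and 8.07 CPM under the KO label, and Sf3b5 had 25.5, 5.996 and 68.8 CPM against 6.24, 12.8 and 2.79 CPM. In both, WT replicate 5 lay within the KO-labelled range and KO-labelled libraries had at most 30 counts. The log2 fold changes were -2.82 ± 1.77 and -2.19 ± 1.63, and that of Sf3b5 was -1.11 without WT replicate 6. Sf3a3 had 97.9, 109 and 56.1 CPM in WT and 42.5, 57.4 and 24.8 CPM under the KO label (-1.08 ± 0.56, edgeR adjusted p = 0.875), with WT replicate 6 just under KO replicate 5.

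The 9 Sf3 estimates had a median of -1.08, but none passed the test. Of the 9, 7 (77.8%) were below 0, against 51.0% of all genes tested. The 4 members under 50 CPM were all below 0 (median -1.89), and the 3 members over 200 CPM had a median of -0.23. Phf5a, an SF3B subunit outside the naming rule, stood at 82.0 ± 16.8 CPM in WT and 32.1 ± 10.8 CPM under the KO label. Its groups did not overlap (log2 fold change -1.35 ± 0.59, edgeR adjusted p = 0.688).

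**Figure D3:**
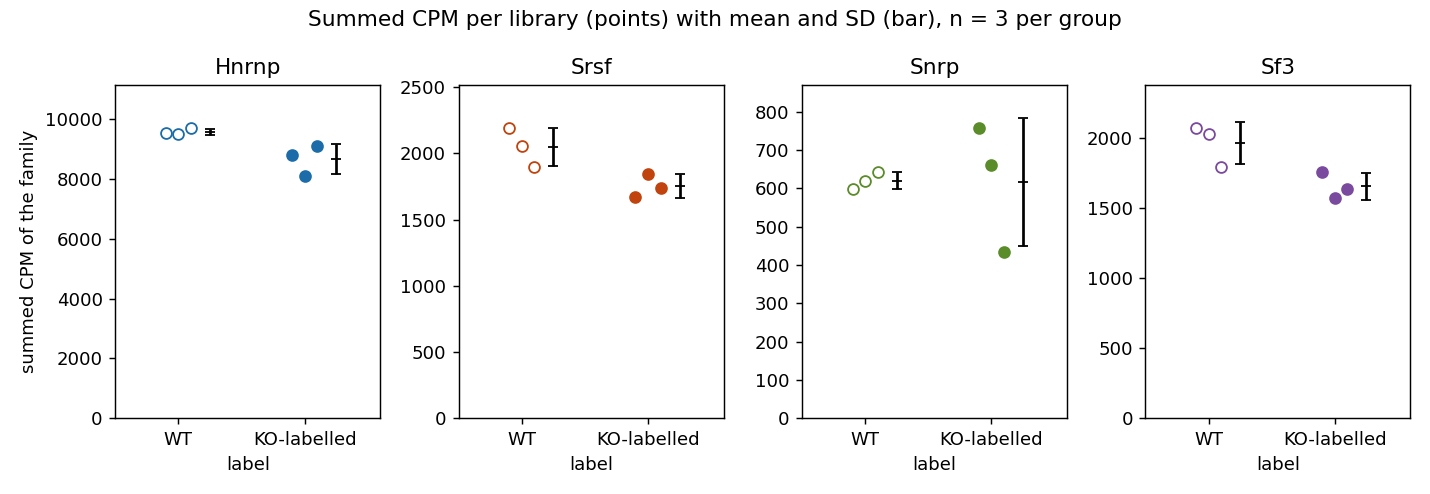
Summed CPM of each family in each library (open WT, filled KO-labelled) with the mean and SD, n = 3 per group. The Hnrnp, Srsf and Sf3 sums lie lower in each KO-labelled library than in all WT libraries, and the Snrp sums overlap.

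Summed over members, the 4 families gave different pictures. The Hnrnp genes together took 9531, 9503 and 9687 CPM in WT and 8783, 8109 and 9114 CPM under the KO label. The Srsf genes took 2189, 2057 and 1900 CPM against 1671, 1848 and 1739 CPM. The Sf3 genes took 2067, 2028 and 1795 CPM against 1758, 1569 and 1634 CPM. These 3 sums were lower in all KO-labelled libraries, by log2 ratios of -0.14, -0.23 and -0.25. The Snrp genes took 599, 618 and 642 CPM against 756, 659 and 433 CPM, so that their groups overlapped. As shares of all counts, without TMM scaling, all 4 families overlapped: the Hnrnp genes took 0.885% to 0.929% in WT and 0.848% to 0.940% in KO-labelled libraries. With library totals the log2 ratios were -0.035 for Hnrnp, -0.12 for Srsf and -0.14 for Sf3. The sums are descriptions without a test, and each is carried by its most abundant members.

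The families differed in how well they could be measured. The spread between libraries of the same label, as a coefficient of variation (SD over mean, pooled over both groups), had a median of 22.4% in the Hnrnp, 30.3% in the Srsf, 35.8% in the Sf3 and 61.1% in the Snrp genes, against 61.1% over all genes tested. The spread followed the level. Median levels were 325 CPM for Hnrnp, 217 CPM for Srsf, 64.7 CPM for Sf3 and 43.3 CPM for Snrp genes, and over the 50 genes, which share the same 6 libraries, Spearman's rho between mean CPM and spread was -0.91. Members under 50 CPM had a median spread of 83.5% (15 genes), those of 50 to 200 CPM 44.8% (14 genes) and those over 200 CPM 15.6% (21 genes). Over all tested genes these medians were 85.1%, 39.2% and 20.8%.

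**Figure D4:**
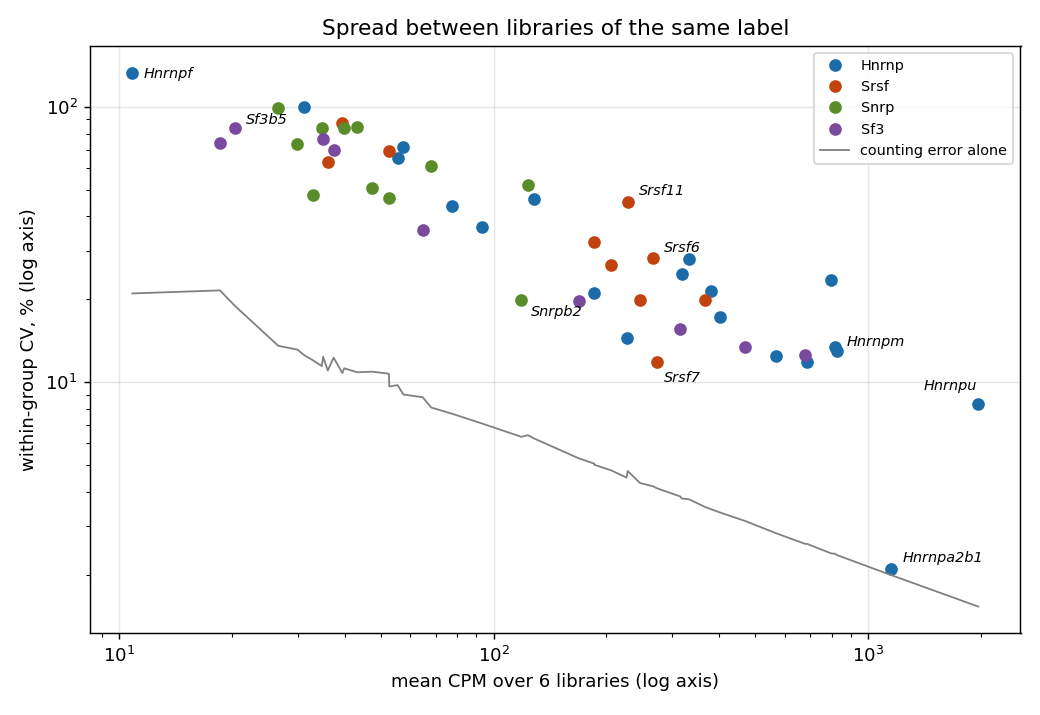
Coefficient of variation between libraries of the same label against mean CPM, both on log axes, for the 50 genes coloured by family, with the value that counting error alone would give as a grey line. Hnrnpa2b1 lies near the line at 2.10%, and Hnrnpf at the upper left has 133%.

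Counting error was a small part of this spread. The median member varied 5.64 times as much as its counts alone would give, and all genes tested 5.22 times. Hnrnpa2b1 had the lowest ratio at 1.06 times, and Srsf7 the next lowest at 2.87 times. Of the 21 members over 200 CPM, Srsf11 (45.0%), Srsf6 (28.3%) and Hnrnpul2 (28.1%) had the widest spread. Hnrnpul2 had 175 CPM in WT replicate 6 and 306 to 401 CPM in the other libraries. WT replicate 6 was the lowest library of its group for 22 of the 50 members and for 40.6% of all genes tested. KO replicate 6 was the lowest of its group for 6 of 11 Snrp and 5 of 9 Sf3 genes, against 30.0% of all genes tested. It was the highest for 9 of 20 Hnrnp genes, against 33.3%. Over all 50 members it was the lowest for 19 and the highest for 17. Other libraries had similar family counts: WT replicate 6 was the lowest for 10 of 20 Hnrnp and 5 of 9 Sf3 genes, and KO replicate 5 for 5 of 10 Srsf genes. The interval of the log2 fold change lay within 2-fold for 13 of 20 Hnrnp, 3 of 10 Srsf, 4 of 9 Sf3 and 1 of 11 Snrp genes. That made 42.0% of all members (median 126 CPM), against 9.44% of all genes tested (median 36.6 CPM). Over 200 CPM it lay within 2-fold for 17 of 21 members and 545 of 818 of all genes tested. Under 50 CPM it did so for 0 of 15 members and 0 of 4943 genes.

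Of the 4 pairs of members within 500 kb of each other, 3 had estimates on opposite sides of 0. Hnrnpd and Hnrnpdl, which lie 54.6 kb apart on chromosome 5, had estimates of -0.33 ± 0.25 and 0.12 ± 0.32. On chromosome 4, Srsf10 and Hnrnpr lie 441 kb apart and had -0.27 ± 1.09 and -1.26 ± 0.71, and Sf3a3 (124714776 to 124732460) and Srsf4 (131873617 to 131901706) had -1.08 ± 0.56 and 0.15 ± 1.196.

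Other genes of the splicing machinery gave no edgeR call either, with the closest among SR-related genes. Of 53 tested snRNP and spliceosome core genes, 18 of the LSm and SMN complexes, 23 of SR-related proteins and SR kinases and 35 of other RNA-binding splicing regulators, none passed (background 0.402%). In the same order, 1, 0, 3 and 3 genes were lower and 0, 0, 2 and 0 higher at an unadjusted edgeR p under 0.05. Of all genes tested, 3.79% were lower and 2.7% higher at that p. Without overlap of the groups, 1, 2, 4 and 7 genes were lower and 0, 1, 2 and 1 higher, beside 7.93% and 6.94% of all genes tested. Their median log2 fold changes were -0.10, -0.29, -0.18 and -0.07. Tra2a, a partner of SR proteins on exonic enhancers, had 410, 602 and 663 counts in WT and 276, 257 and 428 in KO-labelled libraries, or 311 ± 67.6 and 117 ± 13.9 CPM. Its groups did not overlap in CPM, and its log2 fold change was -1.41 ± 0.30 with an edgeR adjusted p of 0.0632. DESeq2 called it (adjusted p = 6.7e-05), as did edgeR without a filter on low counts (0.00919).

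Rbmx, the X-linked gene of hnRNP G, had 221, 265 and 329 counts in WT and 146, 29 and 144 in KO-labelled libraries (log2 fold change -1.999 ± 0.54, edgeR adjusted p = 0.231). KO replicate 5 was the lowest. DESeq2 (adjusted p = 0.00562) and edgeR without the filter (0.01996) called it lower. Pnn, an SR-related protein of the exon junction, stood at 435 ± 181 CPM in WT and 227 ± 35.4 CPM under the KO label (edgeR adjusted p = 0.411, DESeq2 0.0442). Pcbp1, a poly(C)-binding relative of Hnrnpk, had 523 ± 102 and 329 ± 75.6 CPM. Among assembly factors, Clns1a, which chaperones Sm proteins, stood at 157 ± 30.4 and 91.4 ± 27.0 CPM without overlap of the groups, and Sart3, which recycles U6 particles, at 93.8 ± 35.5 and 153 ± 33.6 CPM with overlap (edgeR adjusted p = 0.830 and 0.953).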

How the data were processed

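Poly(A) RNA of 6 ID8 libraries (3 WT, 3 KO) was sequenced after TRIzol extraction and random-hexamer cDNA synthesis, per the labels' protocols. The authors deposited whole counts, not normalized, of reads for each Ensembl gene, in columns numbered 1 to 3 that the labels tie to the libraries numbered 4 to 6. HISAT2 2.0.5, featureCounts 1.5.0-p3, fastp and the build mm10 are named in the submitters' processing notes. Settings, strand mode and annotation release were not given in the sources used here. Symbols and coordinates come from GENCODE M21 of the same build, with 53274 IDs matched.

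The filterByExpr function of edgeR (minimum count 10) kept 8200 genes, all 50 members among them. Libraries were scaled with TMM and tested with edgeR 4.0.16 in R 4.3.3 (robust quasi-likelihood fit, group as the only term, two-sided, Benjamini-Hochberg adjustment over all tested genes, threshold 0.05). CPM uses TMM-scaled library sizes, and SE and 95% intervals come from the same fit. Depth of 1687466 to 3126208 counts makes 1 count worth 0.310 to 0.608 CPM. The value of 3 counts covers counting error only. Sequences are from GENCODE M21 transcripts, compared as 50-base words on both strands. The scripts were tested on simulated data.

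Genes named are, per family, the 3 highest per kb and the 4 smallest p-values, and up to 2 genes per other splicing list. Members outside this rule (such as Hnrnpf, Srsf9, Snrpa and Srsf4) were named after their values were seen. The members and lists were chosen with earlier results of these data known. Alternatives were DESeq2 1.42.0, limma-voom (limma 3.58.1), DESeq2 size factors, library totals, no filter, a stricter filter (1 CPM in 3 libraries), a threshold of 0.01, the replicate number as a block and leaving out each library.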

Additional observations from a re-analysis of the deposited data

How the results depend on the processing

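No member was called, higher or lower, in the fits by DESeq2 and limma-voom, with other scaling, filters or threshold, with the replicate block, or with any 1 library left out. The smallest adjusted p of a member was 0.0817 (Srsf7, DESeq2). With the replicate number as a block 0 members passed, and the Srsf7 log2 fold change was -0.71. Same-numbered libraries showed no shared deviation from their group means (correlations of -0.02, -0.003 and -0.01). Such correlations cannot tell whether those libraries were handled together. The median of the Snrp genes went from -0.14 to -0.76 with that block and to -0.80 in limma-voom. With library totals the Srsf median was 0.0072, the summed log2 ratios were -0.035 (Hnrnp), -0.12 (Srsf) and -0.14 (Sf3), and 3 members in place of 0 were higher without overlap, the last chosen after seeing the data. With 1 library left out the family medians ran from -0.18 to -0.06 (Hnrnp), -0.35 to 0.0016 (Srsf), -0.33 to 0.22 (Snrp) and -1.28 to -0.72 (Sf3). The signs of 4 named members turned in such fits: Hnrnpu (-0.044 to 0.13), Sf3b3 (-0.055 to 0.22), Snrpb2 (-0.026 to 0.34) and Snrpe (-0.77 to 0.26). DESeq2 called 2 SR-related genes (Tra2a and Pnn) and 1 other regulator (Rbmx), and edgeR without a filter 1 of each (Tra2a and Rbmx), where the main test called 0. The cause was not tested. The 24 members named by rule kept direction and side of the threshold in 168 of 168 values from other fits with all libraries. With 1 library left out they did so in 140 values, all but the 4 above. As no member was called in any fit, the side of the threshold could not differ. Many of the 24 were named for small p-values in the same libraries, which favours estimates that keep their sign. Nor does this mean a steady size: Snrpb ran from 0.22 to 0.95 and Srsf11 from 0.31 to 0.97. For members outside that rule no such comparison of single values was made. At this depth and spread, the intervals of 10 of the 11 Snrp genes reach past 2-fold in at least 1 direction.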
